A study of Xenopus laevis with 72 samples.

Results

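The genes hoxa3.S (gene ID 379985) and hoxd3.L (gene ID 100036911) were the members of Hox paralogue group 3 on a quantitative PCR panel run on whole Xenopus laevis embryos, and they made up 2 of its 23 target genes. They were taken by their symbols in the deposited tables, and every one of the 72 samples was used for both. The embryos were wildtype and came from 6 clutches, G to L, each from the eggs of 1 female. All-trans retinoic acid (RA) at 10 nM, or 50 µM of 4-diethylaminobenzaldehyde (DEAB), an inhibitor of the enzymes that oxidize retinal to RA, was given for 2 h, from stage 9.5 (late blastula) to stage 10.25 (early gastrula). After washing, 5 to 10 embryos per sample were collected at 0, 1.5, 3 and 4.5 h from RA, DEAB and control embryos, which gave 12 groups of 6 samples with every clutch in every group. The labels put the controls through the same period and wash and name no vehicle for them. A sample was 1 pool of whole embryos from a clutch, so that fewer expressing cells and less transcript per cell cannot be told apart.

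Hox genes encode transcription factors that give cells their position along the head-to-tail axis, and their order in a cluster follows the order in which they are switched on. Genes at the 3′ end of a cluster, to which group 3 belongs, start early and are known to respond directly to RA through the RA receptors. In vertebrates group 3 genes act in the hindbrain, the neural crest and the pharyngeal arches, and hoxa3 is known from the mouse for its part in forming the thymus and parathyroid glands. Xenopus laevis carries 2 subgenomes, marked L and S, and the panel held 1 copy of each gene. In the RefSeq gene table hoxa3.S lies next to hoxa2.S, and hoxd3.L lies between hoxd1.L and hoxd4.L. The files give the second gene as hoxd3.L, whereas the primer list of the methods names its S copy, so which copy the assay read is not settled.

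Levels were given as log2 values normalized to gapdh (gene ID 380259), in which 1 unit is a doubling and 0 is the median of the gene over its samples, so they cannot be compared between genes. The threshold cycle (Ct), the cycle at which the product becomes visible, was also deposited. It ran from 17.77 to 24.82 for hoxa3.S, with a value in all 72 samples. For hoxd3.L it ran from 13.80 to 26.50, and 53 of 72 samples had a value. The median Ct of hoxd3.L, 23.29, was the latest of the 23 genes, and that of hoxa3.S, 21.72, was the third latest. The 19 missing values of hoxd3.L were all those missing among the target genes. The gapdh Ct ran from 11.29 to 15.50. The number of molecules behind a Ct is not known, and the replicates behind every value below are the 6 clutches, or fewer where hoxd3.L had no value. The standard errors of the fits use the spread of a gene over all 12 groups and borrow from the 23 genes.

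hoxa3.S was low at the end of the pulse and high at 4.5 h in control embryos. Its level at 0 h had a lowest, median and highest value of -3.06, -1.20 and -0.91. At 1.5 h these were -3.72, 0.08 and 1.13, and at 3 h they were -3.02, 0.20 and 2.13. By 4.5 h they had reached -0.40, 2.22 and 3.75, and all 6 control samples then lay above all 6 of 0 h. The spread between clutches was wide at the times in between, when clutches G, H and I lay above 0 and clutches J, K and L below it. Over all 12 samples of a clutch, the median was highest in clutches I (1.005) and G (0.955) and lowest in clutch L (-1.46).

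**Figure D1:**
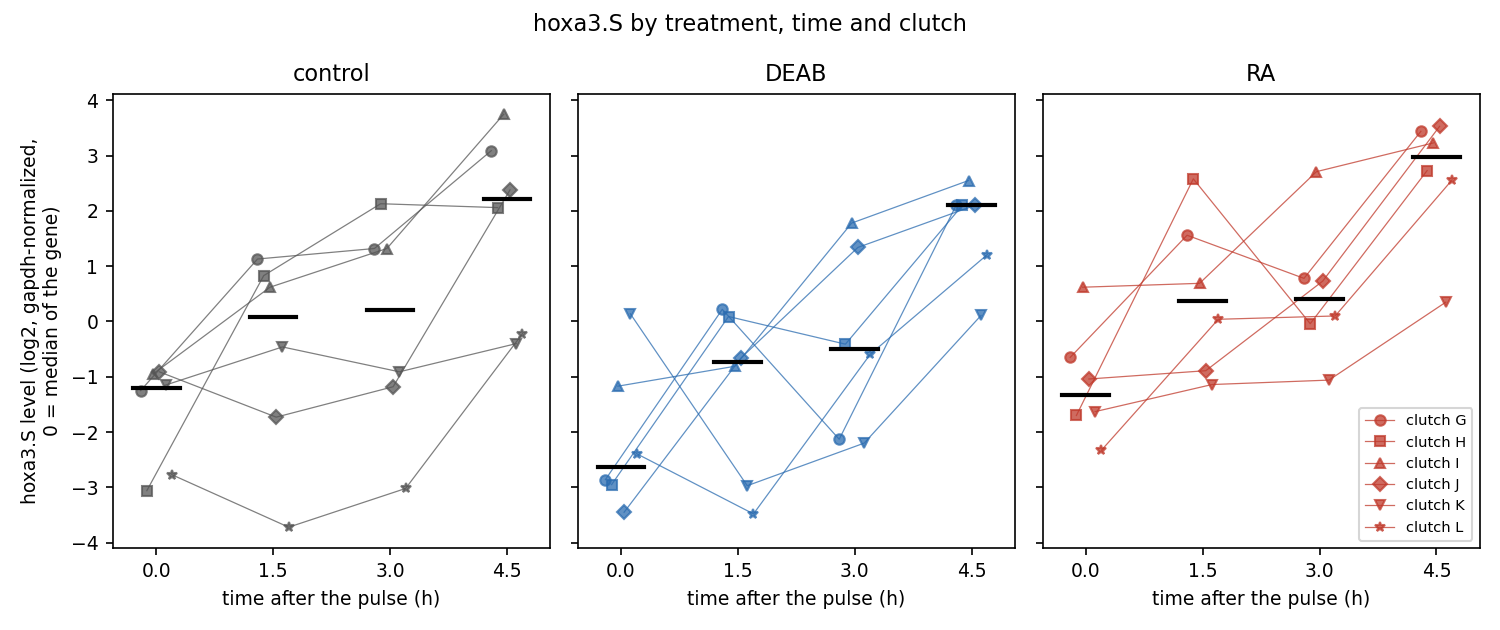
Level of hoxa3.S (log2, normalized to gapdh, 0 being the median of the gene) against time after the pulse, in 1 panel per treatment. Each symbol is 1 clutch, thin lines join the samples of a clutch and black bars are group medians; the medians at 4.5 h, 2.22, 2.10 and 2.98 in control, DEAB and RA embryos, were above those of the earlier times.

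From 0 to 4.5 h hoxa3.S rose in control embryos by 3.46 on the log2 scale, or 11.0-fold (SE 0.66, 95% interval 2.13 to 4.78, limma adjusted p = 3.34e-06), and it rose in each of the 6 clutches (exact sign-flip test, two-sided, p = 0.031, the smallest that 6 clutches can give). The rise was 3.76 in RA embryos (limma adjusted p = 6.90e-07) and 3.81 in DEAB embryos (adjusted p = 4.67e-07). hoxa3.S rose in 6 of 6 clutches under RA (exact sign-flip p = 0.031). Under DEAB it rose in 5 of 6 (exact p = 0.0625), with clutch K at -0.03. Step by step in controls, the change from 0 to 1.5 h was 1.13 (limma adjusted p = 0.135) and that from 1.5 to 3 h was 0.50 (adjusted p = 0.475). The last step, from 3 to 4.5 h, was a rise of 1.83 (limma adjusted p = 0.0247). Most of the panel rose with it. By the same limma test and an adjusted p under 0.05, 87% of the 23 genes changed from 0 to 4.5 h in controls, 95.7% in RA embryos and 95.7% in DEAB embryos. The share was 52.2% for the first step, 73.9% for the second and 34.8% for the third. The median change of all 23 genes in controls, 4.09, was above the 3.46 of hoxa3.S. When the mean of 22 panel genes took the place of gapdh as the reference, the control rise of hoxa3.S was 0.070 (limma adjusted p = 0.893). That mean includes hoxa3.S and the genes that rose with it, so a rise shared with the panel is taken out by construction. What is left is the rise relative to the panel. On that scale the rises in RA and DEAB embryos, 0.52 and 0.29, did not pass either (limma adjusted p = 0.349 and 0.573). With no reference gene, that is with minus Ct alone, hoxa3.S still rose in controls, by 2.16 (limma adjusted p = 0.00188), while the mean gapdh Ct of controls went from 12.51 at 0 h to 13.805 at 4.5 h. Among the other 5 hox genes, all 5 rose in controls, with a median of 5.20.

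hoxd3.L had a value in more samples at the later times. One was given in 8 of 18 samples at 0 h, 12 of 18 at 1.5 h, 15 of 18 at 3 h and 18 of 18 at 4.5 h. In control embryos the counts at these 4 times were 2, 4, 5 and 6 of 6 clutches. In DEAB embryos they were 3, 5, 5 and 6, and in RA embryos 3, 3, 5 and 6. Every clutch had more samples with a value at 4.5 h than at 0 h, by 1.67 of 3 on average (SD 0.516, n = 6 clutches, exact two-sided sign-flip p = 0.031, adjusted over 3 such comparisons p = 0.0938, which did not pass). That exact p is the smallest that 6 clutches can give, so alone among 3 comparisons it could not pass. Over all times, RA and control embryos each had a value in 17 of 24 samples (exact p = 1). DEAB embryos had one in 19 of 24 (exact p = 0.75 against control). By clutch, the count ran from 5 of 12 in clutch G to 11 of 12 in clutch I. The counts of RA embryos, of 0 h and of clutches G, H and K include 3 RA readings of 0 h, described below, whose soundness is not settled. Detection without these 3 readings was not tested.

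**Figure D2:**
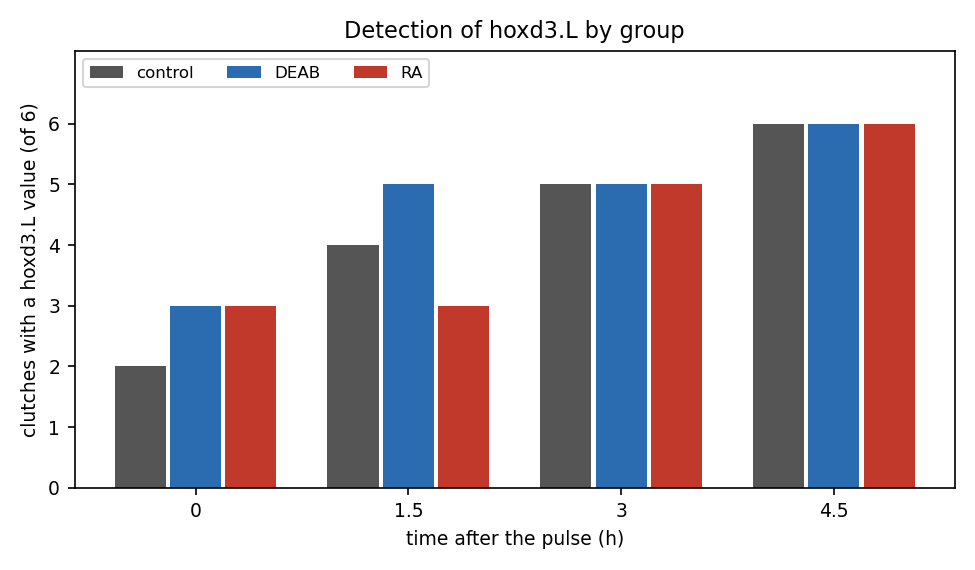
Number of clutches, out of 6, with a hoxd3.L value in each of the 12 groups, by time after the pulse and treatment. Bars start at 0. The groups of 0 h reach 2 or 3 and those of 4.5 h reach 6. The RA bar at 0 h consists of the 3 readings of clutches G, H and K whose soundness is not settled.

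At 0 h the median gapdh Ct was 12.57 in the 10 samples without hoxd3.L and 12.36 in the 8 samples with it. At 1.5 h it was 12.77 in the 6 samples without and 12.98 in the 12 with a value, and at 3 h it was 13.71 in 3 samples and 13.51 in 15. gapdh was thus later in the samples without hoxd3.L at 0 and 3 h and earlier at 1.5 h, differences that were not tested. hoxa3.S at 0 h had a median of -2.55 in the 10 samples without hoxd3.L and of -1.06 in the 8, and both sets overlapped. At 1.5 h the order was the other way, with a hoxa3.S median of 0.68 in the 6 samples without hoxd3.L and of -0.56 in the 12 with it. What left a sample without a value was not tested.

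Where it was detected, hoxd3.L rose in control embryos. At 0 h the 2 values were -2.26 (clutch I) and -4.16 (clutch J). At 1.5 h they were -1.74 (H), -1.31 (I), -3.08 (J) and -1.99 (K). At 3 h they were -2.09 (G), 0.22 (I), 2.04 (J), -1.20 (K) and -0.88 (L). Only clutch J was then above 2, and it stayed at that level, with 2.02 at 4.5 h. At 4.5 h the lowest, median and highest of 6 were 0.37, 1.82 and 2.66, above every control value of 0 and 1.5 h. The fitted rise from 0 to 4.5 h was 5.31 (SE 1.01, 95% interval 3.26 to 7.36, limma adjusted p = 7.41e-06), and it rested on the 2 clutches with a value at both times, which rose by 3.88 and 6.18, and on comparison across clutches for the rest. With the panel mean as the reference it was 1.91 (limma adjusted p = 0.0572), and with no reference gene 3.43 (adjusted p = 0.00151). The steps from 1.5 to 3 h (1.97, limma adjusted p = 0.0305) and from 3 to 4.5 h (2.00, adjusted p = 0.0271) passed the test, while that from 0 to 1.5 h was 1.34 (adjusted p = 0.260).

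In DEAB embryos hoxd3.L was also highest at 4.5 h, as the plot by clutch shows, but its median did not climb at every step. The single steps were not fitted in DEAB embryos. The values at 0 h were -1.76 (I), -1.77 (K) and -3.65 (L). At 1.5 h the lowest, median and highest of 5 were -3.37, -2.30 and 0.18, and at 3 h they were -1.96, -1.64 and 0.14. At 4.5 h the 6 values had a lowest of 0.21, a median of 1.59 and a highest of 2.83, above all others of the treatment. The fitted rise from 0 to 4.5 h was 3.95 (SE 0.87, limma adjusted p = 6.37e-05), upward in 3 of the 3 clutches with both values, and with the panel mean as the reference it was 0.88 and did not pass (adjusted p = 0.346).

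**Figure D3:**
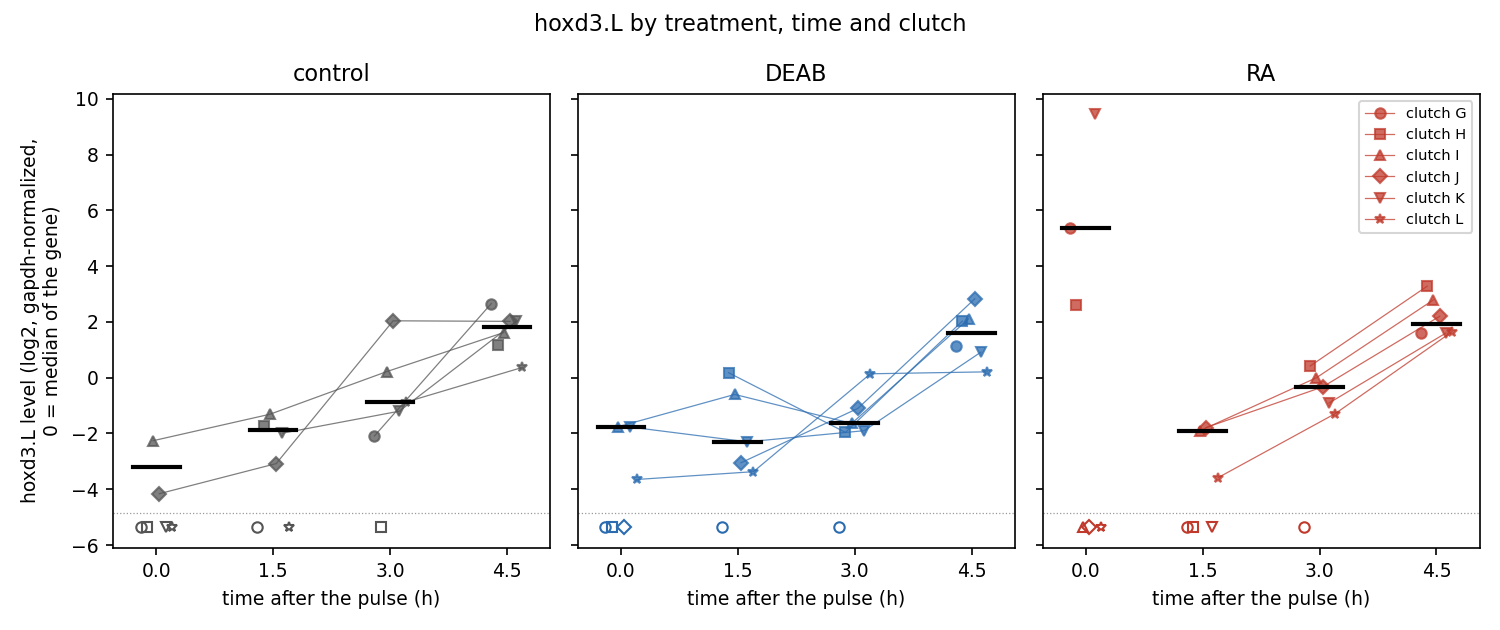
Level of hoxd3.L (log2, normalized to gapdh, 0 being the median of the gene) against time after the pulse, in 1 panel per treatment, with 1 symbol per clutch, lines joining values at neighbouring times and black bars for medians. Open symbols under the dotted line are samples with no value and have no height; the 3 RA values at 0 h, 2.62, 5.35 and 9.45, stand above all values of the other treatments at that time.

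RA embryos at 0 h were the exception. Values were present in clutches G (5.35), H (2.62) and K (9.45), and absent in clutches I, J and L. Their Ct values were 15.78, 19.39 and 13.80, against 23.92 to 26.41 in the 5 control and DEAB samples of 0 h that had a value. Outside this group the earliest hoxd3.L Ct of 50 samples was 19.30 and the highest level 3.28. The value of clutch H therefore lay inside the range that the gene reached in other groups, and those of clutches G and K lay outside it. In clutch K the Ct of hoxd3.L was 13.80 beside 13.53 for gapdh. Whether these 3 readings are sound assay values was not tested, and the files do not settle it. The RA differences of hoxd3.L at 0 h, their change with time and the change from 0 to 4.5 h in RA embryos rest on them. The detection counts of 0 h and of RA embryos include them. At 1.5 h the pattern across clutches turned round. G, H and K then had no value under RA, and I, J and L had -1.91, -1.79 and -3.58. At 3 h the lowest, median and highest of 5 values were -1.29, -0.33 and 0.42. At 4.5 h those of 6 values were 1.60, 1.92 and 3.28.

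The fitted difference RA minus control at 0 h was 9.53 for hoxd3.L (SE 1.17, 95% interval 7.16 to 11.90, limma adjusted p = 7.10e-09), in a comparison in which 26.1% of the 23 genes passed. It had no within-clutch measurement behind it, since 0 clutches had a value in both groups. The 3 RA values came from clutches G, H and K and the 2 control values from clutches I and J. The SD of the 3 RA values was 3.44. The SE instead rests on a residual SD of 1.24 over all 12 groups, so the interval and p do not measure the spread of this group. The same holds for the other fits that use these values. The difference was 7.48 without clutch K, and 4.90 with every missing value set to a Ct of 30, the last cycle of the run (limma adjusted p = 0.0293). Against DEAB the difference at 0 h was 8.27 (SE 1.03, limma adjusted p = 1.04e-08, where 43.5% of the genes passed), and 1 clutch, K, had both values, which differed by 11.22. With missing values at a Ct of 30 it was 4.18 (limma adjusted p = 0.0502). The 3 samples also lay farther from their group and clutch means than most in the other 22 genes. The root mean square deviation over these genes was 0.971 in clutch G, 0.847 in H and 0.844 in K, ranks 5, 8 and 9 from the highest among 72 samples, whose median was 0.507. In the RA samples of 0 h without a hoxd3.L value it was 0.496 to 0.556. The part of these samples' other deviations in the hoxd3.L values was not tested.

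**Figure D4:**
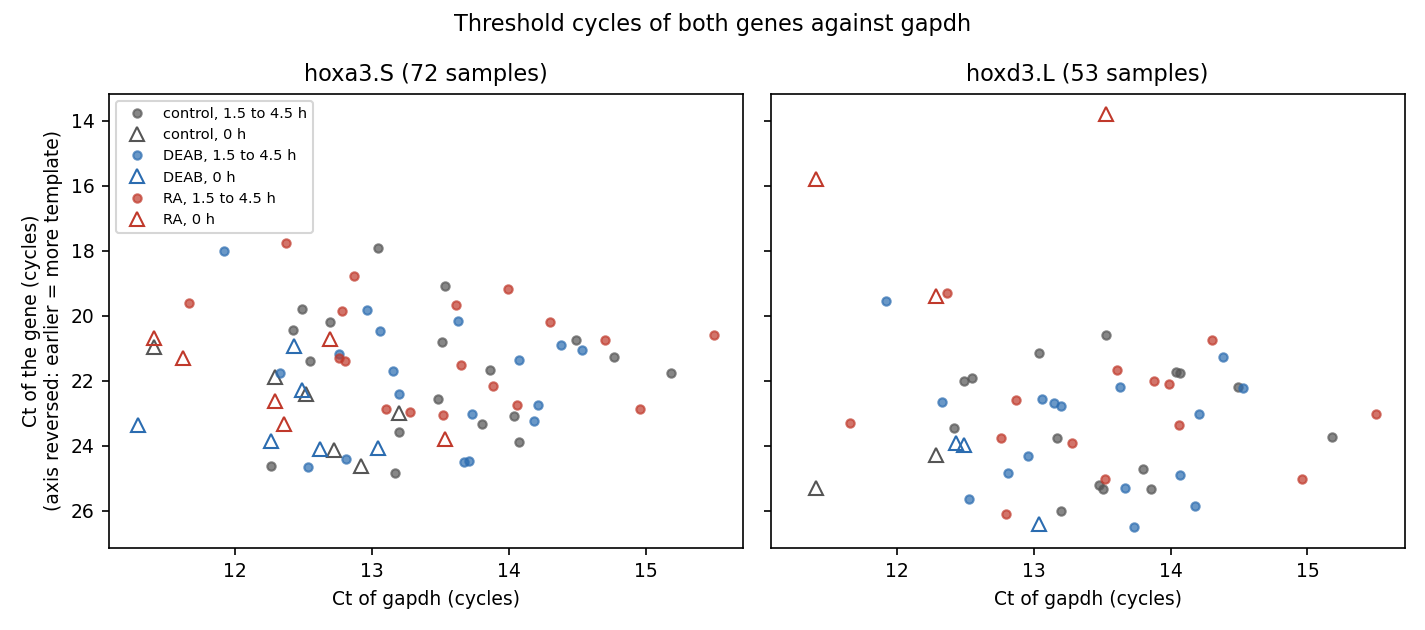
Ct of hoxa3.S (left, 72 samples) and hoxd3.L (right, 53 samples) against the Ct of gapdh in the same sample, in cycles, with the vertical axis reversed so that more template is higher. Open triangles are samples of 0 h and dots are later samples; the RA samples of clutches G and K at 0 h, at Ct 15.78 and 13.80, sit above all other hoxd3.L values, while hoxa3.S shows no such samples.

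After 0 h, no difference of hoxd3.L between RA and control was detected. It was -0.16 at 1.5 h (95% interval -2.06 to 1.75, limma adjusted p = 0.993), where 39.1% of the 23 genes passed, and only 2 clutches had both values. It was -0.15 at 3 h (95% interval -1.72 to 1.42, limma adjusted p = 0.969), where 17.4% passed. At 4.5 h it was 0.54 (95% interval -0.86 to 1.95, limma adjusted p = 0.589), where 0% passed and 3 genes had a limma p under 0.05 before adjustment. At 4.5 h, the time at which all 6 clutches had both values, RA was higher in 4 of 6 (exact two-sided sign-flip p = 0.34375). RA minus DEAB was -0.57, 0.87 and 0.65 at 1.5, 3 and 4.5 h (limma adjusted p = 0.759, 0.460 and 0.683), where 43.5%, 30.4% and 0% of the genes passed. The RA difference of hoxd3.L changed with time by limma's F test (adjusted p = 1.50e-06), as it did for 21.7% of the genes. For hoxd3.L the difference at 0 h, estimated across clutches, entered each of the contrasts of this test. Within RA embryos, hoxd3.L fell by 3.68 from 0 to 4.5 h (SE 0.87, limma adjusted p = 1.63e-04). Of the 3 clutches with both values, G and K fell and H rose by 0.66. Without clutch K the fitted change was -1.61 (limma adjusted p = 0.0924), and with missing values at a Ct of 30 it was 3.31 in the other direction (adjusted p = 0.0701).

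hoxa3.S did not pass the test between RA and control at any time. At 0 h its lowest, median and highest levels were -2.33, -1.34 and 0.62 under RA, beside -3.06, -1.20 and -0.91 in controls, and the groups overlapped. The difference was 0.56 (95% interval -0.76 to 1.88, limma adjusted p = 0.615), with RA higher in 4 of 6 clutches. At 1.5 h the RA levels were -1.14, 0.36 and 2.58, again overlapping the controls at -3.72, 0.08 and 1.13. The difference, 1.03 or 2.04-fold, was the largest of the 4 (95% interval -0.30 to 2.35, limma adjusted p = 0.289), with RA higher in 5 of 6 clutches. At 3 h the RA levels were -1.06, 0.42 and 2.71 and the difference 0.59 (95% interval -0.73 to 1.92, limma adjusted p = 0.860), with RA higher in 3 of 6 clutches. At 4.5 h they were 0.35, 2.98 and 3.53 and the difference 0.86 (95% interval -0.46 to 2.19, limma adjusted p = 0.377), with RA higher in 5 of 6 clutches. The intervals leave room for changes of over 2-fold upward at each time, so that a difference of that size was not excluded by these 6 clutches.

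Clutch L carried much of these values. Its RA minus control differences were 0.44, 3.76, 3.12 and 2.78 at 0, 1.5, 3 and 4.5 h, and the last 3 were the largest of any clutch at their time. Without clutch L the differences at 1.5, 3 and 4.5 h were 0.48, 0.088 and 0.48 (limma adjusted p = 0.894, 0.992 and 0.777). Clutch K ran lower, with -0.48, -0.68, -0.15 and 0.75. In clutch H the difference was 1.75 at 1.5 h and -2.17 at 3 h. The DEAB differences use the same control samples. In clutch L they were 0.38, 0.24, 2.43 and 1.43 at 0, 1.5, 3 and 4.5 h, and in clutch H -2.54 at 3 h. The control level was -3.72 at 1.5 h and -3.02 at 3 h in clutch L, and 2.13 at 3 h in clutch H. The part of the control samples in these differences was not tested. The RA difference of hoxa3.S did not pass the test for a change with time (limma F test, adjusted p = 0.975).

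**Figure D5:**
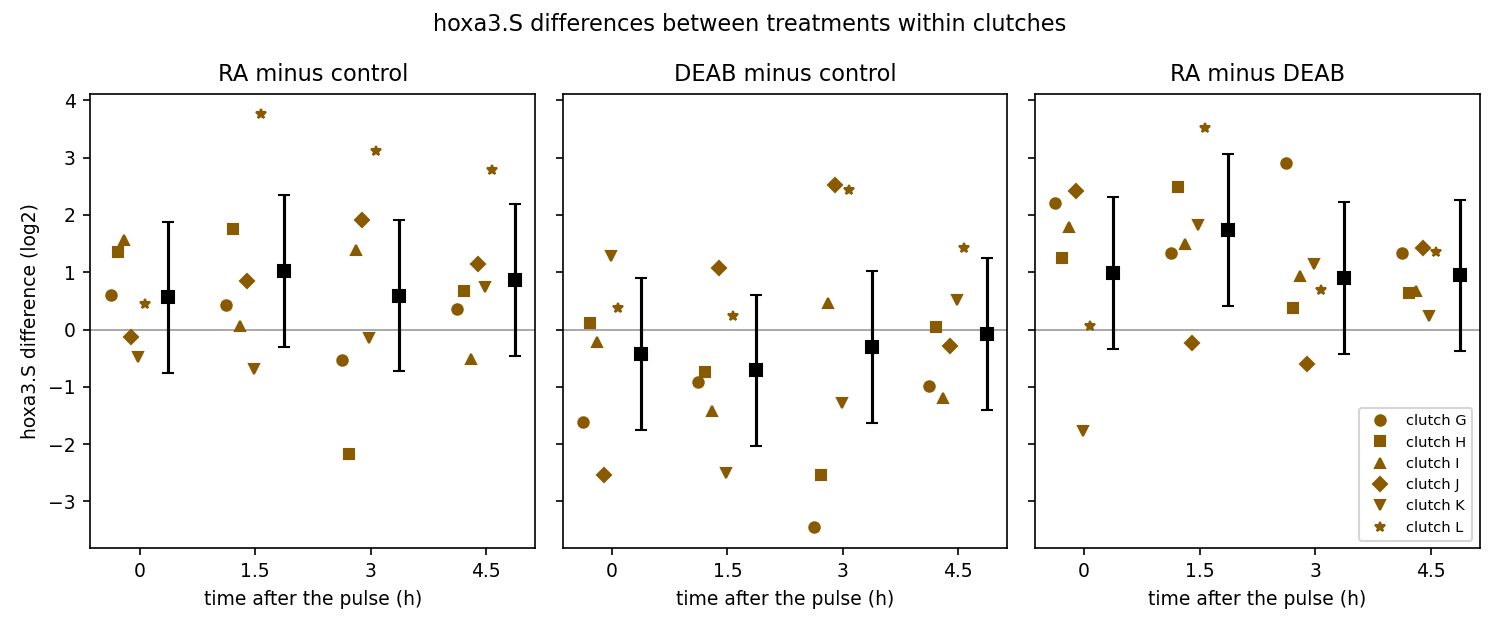
Differences of hoxa3.S between treatments (log2) at each time after the pulse, for RA minus control, DEAB minus control and RA minus DEAB. Symbols are the 6 clutches, black squares the limma estimates with 95% intervals; the interval lies wholly above 0 for RA minus DEAB at 1.5 h, 0.42 to 3.07, and includes 0 elsewhere.

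DEAB and control embryos did not differ past the threshold for either gene, and 0% of the 23 genes passed limma's adjusted test at any of the 4 times. Before adjustment 2, 0, 0 and 0 genes had a limma p under 0.05 at 0, 1.5, 3 and 4.5 h, and 0, 0, 2 and 0 an exact sign-flip p under 0.05. For hoxa3.S the DEAB levels had medians of -2.62, -0.74, -0.50 and 2.10 at 0, 1.5, 3 and 4.5 h, and each group overlapped its controls. The differences were -0.43, -0.71, -0.31 and -0.082 (limma adjusted p = 0.924, 0.886, 0.919 and 0.980). Their 95% intervals were -1.76 to 0.89, -2.04 to 0.61, -1.64 to 1.01 and -1.41 to 1.24, so falls of over 2-fold were not excluded at any time. At 3 h the clutches ran from -3.45 (G) to 2.52 (J), with 3 higher and 3 lower. For hoxd3.L the differences were 1.26, 0.41, -1.02 and -0.10 (limma adjusted p = 0.819, 0.886, 0.760 and 0.980), from 1, 4, 4 and 6 clutches with both values. The 95% intervals, -1.04 to 3.56, -1.23 to 2.05, -2.59 to 0.55 and -1.51 to 1.30, did not exclude such falls either. Neither gene's DEAB difference passed the test for a change with time (limma F test, adjusted p = 0.966 for each, 0% of genes passing).

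Set against each other, the 2 treatments differed for hoxa3.S past the threshold at 1.5 h, a call that several alternatives ended. RA minus DEAB was 1.34 in clutch G, 2.49 in H, 1.50 in I, -0.23 in J, 1.83 in K and 3.52 in L, so that 5 of 6 clutches were higher under RA. The fitted difference was 1.74, or 3.34-fold (SE 0.66, 95% interval 0.42 to 3.07, limma adjusted p = 0.0278), where 43.5% of the 23 genes passed. It no longer passed without clutch L (1.39, limma adjusted p = 0.152), H (1.59, adjusted p = 0.0639) or I (1.79, adjusted p = 0.0578), without clutch as a block (1.74, adjusted p = 0.0826), or with the panel mean as the reference (0.81, adjusted p = 0.134), and the exact sign-flip p over the 6 clutches was 0.0625. At 0, 3 and 4.5 h RA minus DEAB was 0.99, 0.91 and 0.94 (limma adjusted p = 0.247, 0.407 and 0.406), where 43.5%, 30.4% and 0% passed, the last with 4 genes at a limma p under 0.05 before adjustment. At 4.5 h all 6 clutches were higher under RA, by 0.24 to 1.43 (exact two-sided sign-flip p = 0.031, adjusted over the 23 genes p = 0.103). Of the 23 genes, 7 had an exact p under 0.05 at 4.5 h and 0 passed after adjustment. A fit of the samples of that comparison alone put hoxa3.S past the threshold (limma adjusted p = 6.88e-04), as it did 9 of the 23 genes.

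The reference gene moved these values as a whole. With the panel mean in place of gapdh, the median of all 23 genes in RA minus control shifted by -0.62, -0.96, -0.41 and -0.47 at 0, 1.5, 3 and 4.5 h, and hoxa3.S was at -0.056, 0.073, 0.18 and 0.39. The panel mean includes the genes that responded to RA, so a response shared with them is taken out by construction. The estimate of hoxa3.S at 0 h was thus near 0 relative to the panel (SE 0.52) and 0.56 relative to gapdh (SE 0.66). Neither passed the test, so no direction is set by either. hoxd3.L at 0 h was 8.88 with the panel mean.

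Some of the other 5 hox genes passed under RA. Against control 2, 4, 1 and 0 of 5 were higher at 0, 1.5, 3 and 4.5 h, where 26.1%, 39.1%, 17.4% and 0% of the 23 genes passed. Their medians were 0.62, 1.42, 0.69 and 0.68, beside medians over all 23 genes of 0.39, 0.46, 0.16 and 0.39. Against DEAB 4, 4, 2 and 0 of 5 were higher, where 43.5%, 43.5%, 30.4% and 0% of the 23 passed. For DEAB minus control 0 of 5 passed at any time, as did 0% of the 23. At 1.5 h hoxb1.S, a gene of the anterior hindbrain (gene ID 108702519), was higher by 1.60 under RA than in controls (SE 0.52, limma adjusted p = 0.0105). hoxb4.S, a gene of the posterior hindbrain and spinal cord (gene ID 734796), was higher by 1.17 (SE 0.44, limma adjusted p = 0.0273). Both genes were higher under RA in 6 of 6 clutches (exact sign-flip p = 0.031 for each, adjusted over the 23 genes p = 0.0898). Both calls depended on the settings, of which the panel mean takes out by construction a response shared with the panel. Of 15 alternatives, with the exact test counted before adjustment, 12 kept the call of hoxb1.S and 10 that of hoxb4.S. That of hoxb1.S ended with the panel mean as the reference (0.64, limma adjusted p = 0.133) and without clutch I (1.40, adjusted p = 0.0776) or L (1.27, adjusted p = 0.110). That of hoxb4.S ended with the panel mean (0.21, limma adjusted p = 0.594), with no reference gene (1.06, adjusted p = 0.120), without clutch as a block (adjusted p = 0.0637) and without clutch G (1.24, adjusted p = 0.0692) or L (0.98, adjusted p = 0.172). hoxd4.L (gene ID 100380950), the neighbour of hoxd3.L, differed by 0.82 (SE 0.60, limma adjusted p = 0.381). The estimate of hoxa3.S, 1.03, lay between them, and its own SE, 0.66, was larger. Its residual SD, left after the group and clutch terms were fitted, was 1.17. That of hoxd3.L was 1.24, and the median over the 23 genes was 0.742. Without the RA values at 0 h the SD of hoxd3.L was 0.935.

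Whether hoxa3.S responded unlike these genes was examined by the difference of differences within a clutch, over 31 comparisons in all. At 1.5 h the RA difference of hoxa3.S minus that of hoxb1.S was -0.57 (SD 1.27, n = 6, exact p = 0.40625), minus that of hoxb4.S -0.14 (SD 1.06, exact p = 0.5625) and minus that of hoxd4.L 0.21 (SD 0.826, exact p = 0.53125). The 2 members were also set against each other. At 4.5 h the RA difference of hoxd3.L minus that of hoxa3.S was -0.32 (SD 1.47, n = 6, exact p = 0.65625), with clutches from -1.50 to 1.69. At 3 h it was -2.24 over 4 clutches (SD 2.11, exact p = 0.25, where 0.125 is the smallest possible). At 1.5 h only 2 clutches allowed it and at 0 h none. No comparison passed after adjustment, the lowest adjusted p being 0.861. The smallest exact p that 6 clutches can give is too high for 1 comparison alone to pass among 31. Many would have had to reach it together. The adjusted result therefore cannot decide whether these genes responded differently. Before adjustment the lowest exact p was 0.094, as for hoxa3.S minus hoxb4.S under RA at 4.5 h.

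In the rest of the RA network, with gapdh as the reference, the calls were concentrated in 1 list, that of 7 genes for retinal reduction and RA degradation. Of these 3, 5, 3 and 0 were higher under RA than in controls at the 4 times, with medians of 0.77, 2.17, 0.75 and 0.51. Over all 23 genes 26.1%, 39.1%, 17.4% and 0% passed. None of the 5 RA synthesis genes and none of the 4 binding and transport genes passed in that comparison at any time. These counts depend on the reference. With the panel mean 15 genes passed at 1.5 h, beside 9 with gapdh. Neither member passed then, nor did hoxb1.S, hoxb4.S or hoxd4.L. The 15 are more than the degradation list and the remaining hox genes hold, so genes of the other lists were among them. At 1.5 h, the time of its largest RA difference, hoxa3.S at 1.03 was below the median of the degradation list and above that of the panel.

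The means of hoxa3.S ordered the 12 groups mainly by time. From the lowest they ran from DEAB at 0 h (-2.11) and control at 0 h (-1.68) through DEAB at 1.5 h (-1.27), RA at 0 h (-1.12), control at 1.5 h (-0.56), DEAB at 3 h (-0.37), control at 3 h (-0.057), RA at 1.5 h (0.47) and RA at 3 h (0.54) to DEAB (1.70), control (1.78) and RA (2.64) at 4.5 h. At each time RA had the highest mean and DEAB the lowest, but no difference of either treatment from control passed the limma test. By medians the order did not hold at 0 h, where RA (-1.34) lay below control (-1.20). None of the 11 pairs of neighbours in this order differed by the exact sign-flip test, in which the smallest p was 0.0625, for the step of 1.16 from RA at 3 h to DEAB at 4.5 h. The neighbours were set by these same means and are the closest groups by construction. The test therefore cannot decide whether the order as a whole holds. For hoxd3.L the order ran from control at 0 h (-3.21) to RA at 4.5 h (2.19) and RA at 0 h (5.81), and its neighbouring pairs had 2 to 6 clutches with both values. In 9 of its 11 pairs there were fewer than 6, too few for the exact test to reach 0.05, so that most of its neighbours cannot be ordered by this test.

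The genes whose levels followed each member most closely are given as a description, since the samples share clutches, gapdh and the time course. Over 72 samples the highest Pearson r with hoxa3.S were those of hoxd4.L (0.813), cyp26c1.S (0.804), an RA-degrading enzyme, and hoxb1.S (0.795). After group and clutch means were taken out they were hoxb1.S (0.678), cyp26c1.S (0.656) and hoxd4.L (0.618), the same 3 genes. For hoxd3.L over its 53 samples they were hoxd4.L (0.472), cyp26c1.S (0.445) and dhrs3.L (0.443), a retinal reductase, among the genes reported singly. Without the 3 RA samples of 0 h, left out after seeing the data, they were cyp26c1.S (0.850), crabp2.S (0.850), which binds RA in the cell, and hoxd4.L (0.850). With the means taken out they were crabp2.S (0.496), cyp26c1.S (0.473) and hoxb4.S (0.414) over 53 samples. The same 3 genes led when the RA samples of 0 h were then left out (0.426, 0.365 and 0.224), but those samples had still entered the means.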

How the data were processed

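The deposited Ct table and log2 table held 24 genes in 72 samples. By the methods, the authors preamplified cDNA, ran it on BioMark arrays for 30 cycles and kept the median Ct of 3 preamplification runs. The deposited log2 values equalled gapdh Ct minus gene Ct, centred on the gene's median, within 0.001 for 1637 of 1637 values. Missing hoxd3.L values were left out. Groups and clutches came from the sample titles, and columns were matched by title.

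Each of the 23 target genes was fitted on all 72 samples with group and clutch as terms, and variances were moderated with limma 3.58.1 in R 4.3.3. Standard errors used each gene's own covariance, since limma's contrasts are approximate with missing values. Benjamini-Hochberg adjustment ran over the 23 genes, with 0.05 as the threshold. The script was tested on simulated data. Exact two-sided sign-flip tests used within-clutch differences. Clutch was a term because by the labels every clutch came from 1 female. The mean correlation of deviations from group means was 0.360 within clutches and -0.081 between clutches. Each group holds 1 sample per clutch, so such deviations push the value between clutches below 0 by construction. No sample pair was identical.

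Named genes were the 3 with the highest r to each member over its samples, before and after removing means. Members and lists were chosen with earlier results of these data known. Some genes enter each fit and count but are not reported singly. All 24 gene IDs matched the RefSeq table of Xenopus_laevis_v10.1, which was used for names and neighbours only. Alternatives covered the block, reference gene, samples fitted, moderation, adjustment, each clutch left out, and missing values. Figures were drawn with matplotlib.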

Additional observations from a re-analysis of the deposited data

Results flagged for a closer look

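Each group of 4 to 10 values of both genes, and of gapdh Ct, was searched for a value far from the rest, in 58 groups, of which chance would pick about 1 in 20. 2 were picked, both in clutch K for hoxa3.S. Its RA level at 4.5 h was 0.35, with the other 5 clutches at 2.56 to 3.53. Its change from 0 to 4.5 h in DEAB embryos was -0.03, with the other 5 clutches at 3.60 to 5.55. The hoxd3.L values of RA embryos at 0 h, 3 in number, were too few for this search.

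The RA minus control difference of hoxd3.L changed with time (limma F test, adjusted p = 1.50e-06). It was 9.53 at 0 h, where no clutch had both values, and -0.16, -0.15 and 0.54 later. Without the 3 RA values of 0 h no difference at that time could be fitted, and those at 1.5, 3 and 4.5 h were -0.13, -0.25 and 0.54 (limma adjusted p = 0.993, 0.938 and 0.469). That setting was chosen after seeing the data.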

How the results depend on the processing

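Of the called results, the RA difference of hoxd3.L at 0 h stayed called in all 14 alternatives that gave a value, from 4.90 to 11.72. The highest came with a block per clutch and time, where it rested on clutch K for RA minus DEAB and on clutch I for DEAB minus control. Each of these alternatives kept RA readings of 0 h whose soundness is not settled, and without those readings no value could be fitted. The count is thus no check of them. For this difference the exact test could not be run and the 2 groups alone could not be fitted, since no clutch had both values. RA minus DEAB at 0 h was weaker with missing values at a Ct of 30 (4.18) and was 11.22 in its 1 shared clutch; DEAB minus control there was 0.50 in its 1 shared clutch. For hoxa3.S, RA minus DEAB at 1.5 h was 1.74 but not past the threshold without the replicate block (adjusted p = 0.0826) or by the exact test over paired clutches (1.74), 0.81 with the panel mean, and 1.39 to 2.14 with clutches left out in turn. At 4.5 h it was 0.94 and called with only the samples compared, where 9 of the 23 genes passed. Its exact p was under 0.05 before adjustment, as for 7 of the 23 genes, but not after. hoxd3.L was 0.64 and called with only the samples compared. With the panel mean, which takes out changes that the panel shares, the control rise was 0.070 for hoxa3.S and 1.91 for hoxd3.L. The DEAB rise was then 0.29 and 0.88, and the RA rise of hoxa3.S was 0.52, and none of these was called. By the exact test over paired clutches the DEAB rise of hoxa3.S was not called either (p = 0.0625). The RA change of hoxd3.L from 0 to 4.5 h was 3.31 with missing values at a Ct of 30. The detection difference was 1.60 to 1.80 samples with clutches left out, a setting added after seeing the data, and 5 clutches cannot reach the threshold.

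Differences that were not called changed sign as follows. RA minus control was -0.056 for hoxa3.S at 0 h with the panel mean, and hoxd4.L was -0.14 at 1.5 h. For hoxd3.L at 1.5 h it was 0.44 with a block per clutch and time, 0.059 with no reference gene, 0.34 with only the samples compared, and -0.75 to 0.028 with clutches left out; at 3 h the last range was -0.48 to 0.46. DEAB minus control at 4.5 h was 0.10 for hoxa3.S and 0.082 for hoxd3.L with no reference gene. With clutches left out it was -0.88 to 0.32 for hoxa3.S at 3 h, -0.38 to 0.14 at 4.5 h, and -0.29 to 0.18 for hoxd3.L at 4.5 h. The number of genes called at 3 h in RA minus control was 4, and 0 without the block, 0 with no reference gene, 1 with the panel mean and 8 with only the samples compared; at 0 h it was 6, and 12 with the panel mean, and at 1.5 h 9 and 15. In RA minus DEAB it was 10 at 0 h, and 17 with the panel mean and 4 with only the samples compared, 7 at 3 h and 12 with the panel mean, and 0 at 4.5 h, 9 with only the samples compared and 3 with a block per clutch and time. With clutches left out, RA minus control at 3 h went from 4 to 0 genes without J and 2 without L. RA minus DEAB went from 10 to 6 at 1.5 h and from 7 to 4 at 3 h without L. At 4.5 h the counts of 0 became 1 without H and 2 without K in RA minus control, and 3 without H and 1 without K in RA minus DEAB. The causes were not tested.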
